A study of Mus musculus with 24 samples.

Results

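The NeuroD and related postmitotic bHLH factors were followed as 6 genes, *Neurod1*, *Neurod2*, *Neurod6*, *Bhlhe22*, *Nhlh1* and *Nhlh2*, which were picked by gene symbol from the 54658 genes of the expression table. RNA was sequenced in 24 libraries from mice, 3 for each genotype in E11.5 cortices, in E14.5 cortices and in neurospheres kept in culture for 12 or 24 hours. The mutants, labelled *Cep135* (-/-), carry in both copies, per the study's methods, the Δ8 deletion made with CRISPR/Cas9 in the second exon, and the controls are *Cep135* (+/+) embryos from matings of heterozygous mice. No group received a drug. Letters name the E11.5 embryos, A to C for mutants and D to F for controls. Numbers name the E14.5 embryos, 1, 2 and 6 for mutants and 3 to 5 for controls, and their titles all carry the same code. The neurospheres were grown in EGF and FGF2 from the dissociated E14.5 dorsal telencephalon of these same 6 embryos, so cortex and culture libraries with the same number come from the same animal, and n = 3 always counts embryos. Each value is a normalized read count, the number of 3′ reads on a gene divided by the size factor of the library.

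Basic helix-loop-helix (bHLH) factors bind the E-box, a DNA motif written CANNTG, usually as a pair with a broadly expressed E protein (*Tcf3*, *Tcf4* or *Tcf12*), and Id proteins hold E proteins away from DNA. In the developing cortex, proneural factors such as *Neurog2* act in dividing progenitors, and the factors followed here come on as cells leave the cell cycle and become glutamatergic neurons. *Neurod1* marks late progenitors and newborn neurons. *Neurod2* and *Neurod6* are kept in projection neurons and act in their maturation and axon growth. *Bhlhe22* is a repressor that works with *Prdm8* in postmitotic neurons and takes part in setting up cortical areas and corticospinal axons. *Nhlh1* and *Nhlh2* are switched on for a short time in newborn neurons in many parts of the nervous system, Cajal-Retzius neurons among them.

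All 6 are compact genes, and positions here are those of GENCODE vM21 on GRCm38. *Neurod1* (ENSMUSG00000034701) lies on chromosome 2 from 79452521 to 79456751, *Neurod2* (ENSMUSG00000038255) on chromosome 11 from 98325415 to 98329648 and *Neurod6* (ENSMUSG00000037984) on chromosome 6 from 55677822 to 55681263, all on the minus strand. *Bhlhe22* (ENSMUSG00000025128) lies on chromosome 3 from 18054174 to 18057517 on the plus strand, *Nhlh1* (ENSMUSG00000051251) on chromosome 1 from 172052292 to 172057573 on the minus strand, and *Nhlh2* (ENSMUSG00000048540) on chromosome 3 from 102010076 to 102015492 on the plus strand. Of the 2729 exon bases of *Neurod1*, 201 are shared with *Cerkl* on the same strand, where a read cannot be given to either gene alone. *Cerkl* stayed at or below 13.7 normalized read counts in every library.

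The sequence before the start of each gene was read from RefSeq on GRCm38.p6, which held an entry for 5 of the 6, all but *Bhlhe22*. The windows of *Neurod2* and *Neurod6*, whose RNA levels followed each other across the libraries, and of *Nhlh1* and *Nhlh2*, which followed another course, are set below from 5′ to 3′ on the strand of the gene. Each begins 250 bases before the RefSeq start and stops at that start or, where GENCODE places the gene's first exon earlier, at the exon. Capitals mark each CANNTG.
Neurod2, chr11:98329649-98329895, minus strand: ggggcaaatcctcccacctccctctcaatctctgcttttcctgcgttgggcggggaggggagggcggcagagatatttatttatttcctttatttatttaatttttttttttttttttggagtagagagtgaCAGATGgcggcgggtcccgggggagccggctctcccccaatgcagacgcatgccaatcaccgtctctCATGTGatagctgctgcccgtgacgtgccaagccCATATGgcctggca
Neurod6, chr6:55681264-55681513, minus strand: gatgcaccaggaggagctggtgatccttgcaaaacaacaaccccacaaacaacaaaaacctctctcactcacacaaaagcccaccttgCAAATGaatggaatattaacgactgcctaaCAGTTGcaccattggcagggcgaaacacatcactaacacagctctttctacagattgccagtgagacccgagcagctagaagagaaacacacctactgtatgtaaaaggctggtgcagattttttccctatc
Nhlh1, chr1:172057597-172057846, minus strand: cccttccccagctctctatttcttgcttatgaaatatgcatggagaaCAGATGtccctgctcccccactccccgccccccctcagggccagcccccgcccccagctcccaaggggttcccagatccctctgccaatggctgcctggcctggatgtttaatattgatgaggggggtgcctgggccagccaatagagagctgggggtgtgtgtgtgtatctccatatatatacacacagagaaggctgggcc
Nhlh2, chr3:102009895-102010075, plus strand: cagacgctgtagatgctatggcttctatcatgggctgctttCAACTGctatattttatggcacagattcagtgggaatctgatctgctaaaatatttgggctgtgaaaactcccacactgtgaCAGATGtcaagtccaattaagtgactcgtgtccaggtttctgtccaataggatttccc
CANNTG reads the same on both strands, and all 5 windows of 250 bases held it, as did 66.2% of the 32851 windows of that length in the RefSeq table. CAGATG (searched also as its reverse complement, CATCTG) was in 3 of the 5, beginning 118 bases before the start of *Neurod2*, 203 before that of *Nhlh1* and 127 before that of *Nhlh2*, and in 14.4% of all windows. CATATG stood 17 bases before *Neurod2* and 242 before *Neurod1*, and in 3.46% of all windows. *Neurod6* held neither, and its 2 E-boxes were CAAATG and CAGTTG. These are letters in a window, and nothing was measured at them here.

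The libraries held 4732781 to 11645213 reads on genes, and the members were seen with 11 to 6548 reads per library, with the fewest for *Neurod6* and *Bhlhe22* at E11.5 (11 to 101 and 38 to 73 reads) and for *Nhlh2* in control cultures (29 to 197), where counting error is largest. All 6 members passed the filter of a mean of at least 10 in every comparison. The tissue label was checked on *Emx1* (117 to 327 in the cortices), *Pax6*, *Eomes* and *Tbr1*, and none of these forebrain genes was at 0 in any library. The 3′ reads on *Cep135* (171 to 375 over the 24 libraries) lie away from the deletion and do not check the genotypes. By *Xist* and Y-linked transcripts the female embryos were 1 and 2 at E14.5 and A, C and E at E11.5, so that the E14.5 controls were all male. The titles of the E11.5 embryos carry 2 codes, one for A and D and another for B, C, E and F, and what the codes stand for is not given in the sources used here. The description of mutant 6's cortex names E11.5 and its title E14.5, and the title was followed. General neuron genes summed to 34704 in this library, against 12632 to 19646 in the E11.5 cortices and 37136 to 43277 in the other E14.5 cortices.

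**Figure D1:**
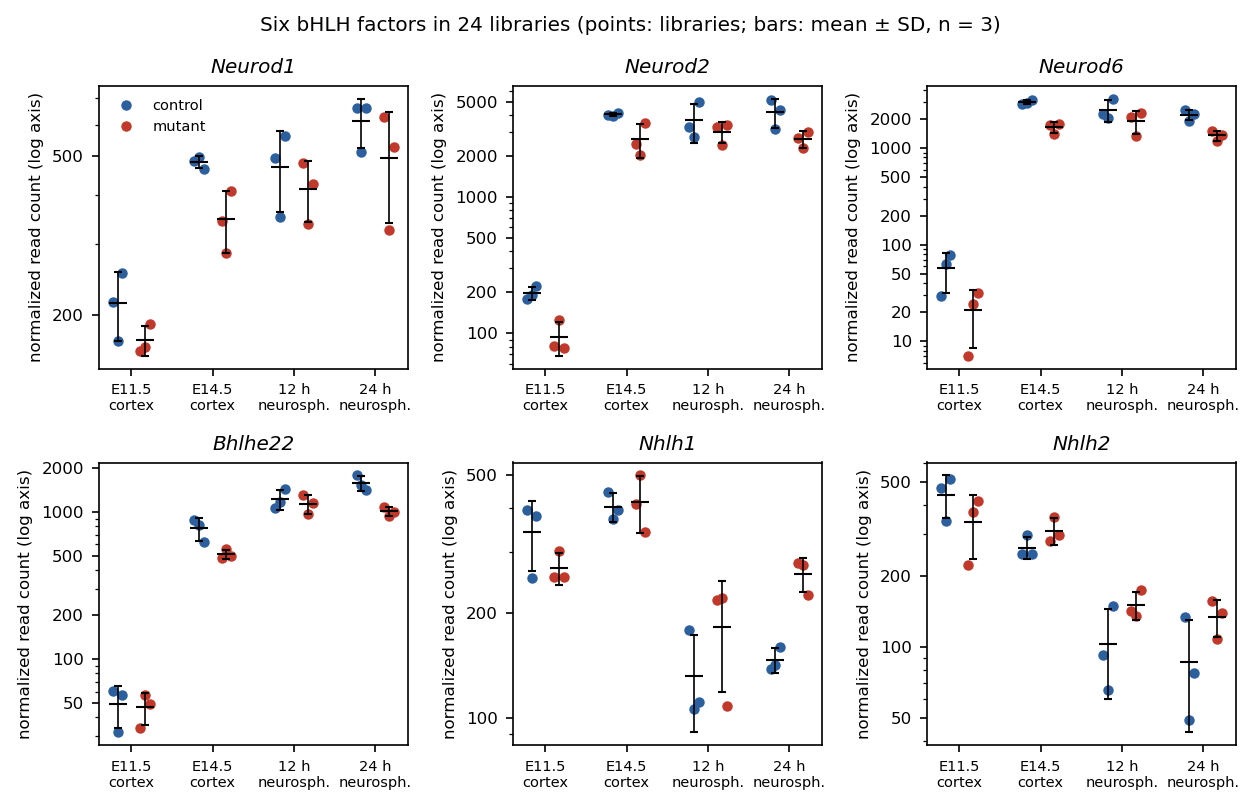
Normalized read counts (log axis) of the 6 factors in E11.5 and E14.5 cortices and in 12-hour and 24-hour neurospheres, with control libraries in blue and mutant libraries in red, and bars for mean ± SD (n = 3 embryos). *Neurod2*, *Neurod6* and *Bhlhe22* lie far lower at E11.5 than in the other conditions, whereas *Nhlh1* and *Nhlh2* lie lowest in culture, and at 24 hours the red points of *Nhlh1* (225 to 278) sit above the blue ones (138 to 160.0).

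The first question was how the 6 factors change as the cortex begins to make neurons, and 5 of them rose from E11.5 to E14.5. *Neurod6* rose most, from 29.2, 63.6 and 78.5 in the E11.5 controls (embryos D to F) to 2863, 2948 and 3126 in controls 3, 4 and 5. *Neurod2* rose from 179, 189.8 and 222 to 4021, 3959 and 4156, and *Bhlhe22* from 60.5, 31.8 and 56.7 to 883, 812 and 619. For these genes every E14.5 control lay above every E11.5 control, and the control means stood 52.2, 20.5 and 15.5 times higher at E14.5. The same ratios of means in mutants were 77.5, 28.1 and 10.9. *Neurod1* was already on at E11.5, where the controls held 215, 171 and 255, and 486, 499 and 466 were reached at E14.5, a ratio of 2.26.

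The *Nhlh* genes did not share that course. *Nhlh1* in controls was 395, 252 and 379 at E11.5 and 447, 372 and 396 at E14.5, ranges that overlap, while the mutants went from 254, 302 and 253 to 411, 498 and 342 without overlap. *Nhlh2* stood at 474, 340.4 and 515 in the E11.5 controls and at 248, 297 and 247 in those of E14.5, and the mutants (222, 375 and 418, then 280.0, 356 and 298) overlapped between the ages.

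In limma's fit over the 12 cortices, with age and genotype as terms, the rise on the log2(normalized read count + 1) scale was 6.11 ± 0.29 (SE) for *Neurod6*, 4.58 ± 0.14 for *Neurod2*, 3.71 ± 0.17 for *Bhlhe22*, 1.09 ± 0.11 for *Neurod1* and 0.44 ± 0.13 for *Nhlh1*. The adjusted p (Benjamini-Hochberg over all genes tested) was 1.67e-10, 1.75e-12, 1.43e-10, 7.81e-07 and 0.00946 in that order. The background was broad, as 23.8% of the 13650 genes tested rose with age. Every E14.5 cortex lay above every E11.5 cortex for 2121 of these genes, with *Neurod1*, *Neurod2*, *Neurod6* and *Bhlhe22* among them. The difference for *Nhlh2*, -0.40 ± 0.17, did not pass (adjusted p = 0.0544). It passed without mutant A, control E or mutant 2, with an adjusted p of 0.00177, 0.0475 and 0.0295.

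The partners of these factors moved with age in both directions. Of 8 genes that act with them or have been described as their targets, 6 rose and 2 fell with age, among them *Prdm8*, the partner of *Bhlhe22* (log2 difference 3.62), and *Cntn2*, an axonal adhesion molecule (2.89), which rose, and the cadherin *Cdh11*, which fell (-1.37). Among the E proteins, *Tcf4* rose (1.59) and *Tcf3* (-0.75) and *Tcf12* (-0.51) fell. *Id2* rose (0.58), and *Id1* (-1.33), *Id3* (-2.35) and *Id4* (-0.26) fell. Of 15 other projection neuron transcription factors 12 rose and none fell, with *Myt1l* at 3.10 and *Bcl11b* at 2.37, and their median difference was 1.34 against -0.08 over all genes tested. Of 12 general neuron genes 11 rose. Of 11 proneural and progenitor bHLH genes tested 5 fell, *Olig2* (-1.23) and the Notch target *Hes5* (-1.13) among them. Of the others 2 rose, *Neurog2* (0.63) and *Bhlhe40* (0.82), and 4 did not pass. Among all 13650 genes 3995 fell.

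The next comparison set the E14.5 cortex against its own cells after 12 hours in culture. *Bhlhe22* rose, both *Nhlh* genes fell, and none of the 3 NeuroD genes passed the test. In mutants 1, 2 and 6 *Bhlhe22* went from 484, 555 and 502 to 1294, 967 and 1153, and in controls 3, 4 and 5 from 883, 812 and 619 to 1059, 1162 and 1434. All 6 embryos had more in culture. *Nhlh1* went from 411, 498 and 342 to 218, 221 and 108 in the mutant embryos, and the controls went from 447, 372 and 396 to 179, 106 and 111, and no culture reached the lowest cortex. *Nhlh2* went from 280.0, 356 and 298 to 142, 136 and 175 in the mutant embryos, and the controls went from 248, 297 and 247 to 92.8, 65.8 and 149.6.

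By limma, with genotype but no embryo term in the fit, *Bhlhe22* rose by 0.90 ± 0.13 (SE, adjusted p = 8.74e-05), beside 14.1% of all genes tested that rose. *Nhlh1* (-1.45 ± 0.19, adjusted p = 4.82e-05) and *Nhlh2* (-1.23 ± 0.18, adjusted p = 0.000103) fell, as did 16.1% of all genes. Every 12-hour library lay below every E14.5 cortex for 1056 of 13601 genes, both *Nhlh* genes among them. For 906 genes, *Bhlhe22* among them, every 12-hour library lay above. The differences were 0.09 for *Neurod1*, 0.00 for *Neurod2* and -0.03 for *Neurod6* (adjusted p = 0.647, 0.993 and 0.888). Other bHLH genes moved with the culture. Of the proneural and progenitor group 3 rose (*Olig1* by 2.29, *Olig2* by 1.58 and *Hes6* by 0.52) and 6 fell. Among those that fell were *Hes5* at -4.23 and *Neurod4*, a bHLH factor of the same family that acts earlier, at -2.51. *Id2* rose (1.08) and the other 3 Id genes fell. Of the 8 partner and target genes 2 rose (*Robo1*, an axon guidance receptor, by 1.11, and *Prdm8* by 0.53) and 3 fell. Of 7 Cajal-Retzius genes 4 fell. Genes of other cell types moved too. All 6 endothelial, all 6 meningeal and all 5 microglial genes tested fell (median -4.31, -3.69 and -4.57), as did 6 of 10 apical progenitor and 4 of 7 intermediate progenitor genes, and all 7 erythroid genes rose (median 1.32). Of 12 general neuron genes 2 rose and 2 fell. The part of these shifts in the values of the members was not tested.

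From 12 to 24 hours no member passed, in a comparison where limma called 0.292% of 13359 genes. The differences ran from -0.32 (*Neurod6*, unadjusted p = 0.0363, adjusted p = 0.481) to 0.38 (*Nhlh1*, adjusted p = 0.549). That *Neurod6* value was the only member difference with an unadjusted p under 0.05, and edgeR and DESeq2 on whole reads also called no member. *Neurog2*, upstream of the NeuroD genes in progenitors, fell by 0.77 on the log2 scale (adjusted p = 0.0340), and *Olig1* rose by 2.16 (adjusted p = 2.17e-08).

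**Figure D2:**
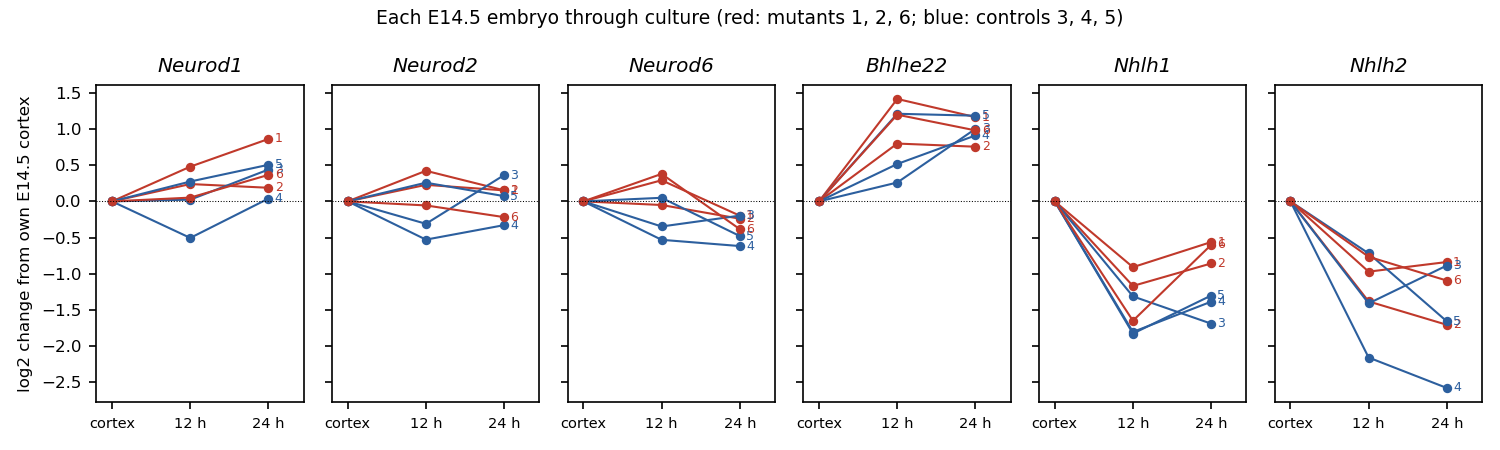
Log2 change of each factor from an embryo's own E14.5 cortex to its 12-hour and 24-hour neurospheres, with 1 line per embryo, mutants in red and controls in blue. *Bhlhe22* lies above 0 in all 6 embryos and both *Nhlh* genes below 0, and at 24 hours the mutant lines of *Nhlh1* (-0.86 to -0.56) sit above the control lines (-1.69 to -1.30).

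The genotypes were then compared within each condition. At E11.5 the means of all 6 factors were lower in *Cep135* (-/-) cortices, and *Neurod2* was the only member without overlap. It was at 80.6 in mutant A, 125 in mutant B and 78.6 in mutant C, against 179, 189.8 and 222 in embryos D to F, 52.0% lower by the ratio of means (log2 difference -1.08 ± 0.20 SE, adjusted p = 0.226). *Neurod2* was lower in mutants under both title codes. Genes with every mutant below every control made up 6.11% of all genes tested here. *Neurod6* was at 7.10, 24.5 and 31.7 in mutants, from 11, 22 and 44 reads, and at 29.2, 63.6 and 78.5 in controls (-1.51, 95% interval -2.66 to -0.35, adjusted p = 0.612). Mutant C lay above control D, and under each title code the mutants were below the controls. *Bhlhe22* was at 34.2, 56.9 and 49.8 against 60.5, 31.8 and 56.7, with a difference of -0.06 that could lie anywhere from -0.71 to 0.60.

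*Neurod1* was at 162, 166 and 189.7 in E11.5 mutants and 215, 171 and 255 in controls, and *Nhlh2* at 222, 375 and 418 against 474, 340.4 and 515. By limma no member passed at E11.5, where 0.0149% of 13406 genes did. 2 members, *Neurod2* and *Neurod6*, had an unadjusted p under 0.05, and edgeR on whole reads called no member and DESeq2 called *Neurod2* (adjusted p = 0.00127). *Neurod2* also passed in limma with no filter on low genes (0.0290) and without mutant B (0.0419). In the same libraries all 12 general neuron genes had a log2 difference below 0 (median -0.33, against 0.02 over all genes), with summed levels of 12632 to 15445 in mutants and 13485 to 19646 in controls. Apical progenitor genes summed to 18489 to 20491 in mutants and 21063 to 22585 in controls. All 9 interneuron and ventral telencephalon genes tested were also below 0 (median -0.37), with sums of 1444 to 1672 against 1994 to 2371, and all 7 Cajal-Retzius genes were above 0 (median 0.20), with sums of 1238 to 1507 against 965 to 1265. Endothelial genes summed to 1247 to 1428 against 1070 to 1204, and liver genes without *Ttr* to 79.2 to 909 against 48.2 to 51.4. No gene of these lists passed, and their part in the values of the members was not tested.

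At E14.5 every mutant lay below every control for the 3 NeuroD genes and *Bhlhe22*, of which *Neurod6* passed the test, and both *Nhlh* genes overlapped. *Neurod6* fell, from 2863, 2948 and 3126 in controls 3, 4 and 5 to 1724, 1393 and 1795 in mutants 1, 2 and 6, 45.0% lower by the ratio of means (log2 difference -0.87 ± 0.13 SE, 95% interval -1.16 to -0.58, limma adjusted p = 0.0481). It was the only member that passed, beside 0.0294% of 13583 genes that were called lower. Leaving out mutant 1, mutant 2, control 3 or control 4 took its adjusted p to 0.162, 0.495, 0.120 and 0.312, with a difference from -0.94 to -0.73 over all alternatives. The call was also lost with edgeR on whole reads (0.0787), with a mean of at least 50 as the filter (0.0522) and in a fit over all 24 libraries (0.999). It was kept with DESeq2 (7.39e-06), and in limma with no filter (0.00799), quantile scaling (0.0256) or the *Gm42418* share as a term (0.0177). Sex as a term gave the smallest difference of the alternatives, -0.73. The controls were all male and 2 of the mutants female, so this value compares mutant 6 alone with the controls.

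*Neurod2* was at 2452, 2050.2 and 3489 in mutants, against 4021, 3959 and 4156 in controls (34.1% lower, adjusted p = 0.367), *Bhlhe22* at 484, 555 and 502 against 883, 812 and 619 (33.4% lower, adjusted p = 0.367), and *Neurod1* at 344, 286 and 409.5 against 486, 499 and 466 (28.3% lower, adjusted p = 0.434). For these 3, as for *Neurod6*, no mutant reached the lowest control, which held for 6.71% of all genes tested. *Neurod2* passed without mutant 6 (-0.85, adjusted p = 0.0315) and *Bhlhe22* without control 5 (-0.72, adjusted p = 0.0448). The library of mutant 6 had the lowest liver sum (739.95) and thalamus and hem sum (890.3), and both lists hold *Ttr*. The other 5 cortices of this age had 4185 to 7399 and 3273 to 7565. *Ttr* alone was at 681 to 7339 in mutants and 3055 to 5083 in controls. Without *Ttr* the liver list summed to 58.7 to 85.0 in mutants and 65.9 to 1130 in controls (median 1125). The thalamus and hem list without it summed to 209 to 359 against 218 to 278. All 8 liver genes tested were below 0 in mutants (median -3.61), with none past the threshold. The part of these values in those of the members was not tested. *Nhlh1* was at 411, 498 and 342 in mutants, against 447, 372 and 396 in controls, a difference of 0.03 with an interval of -0.32 to 0.38. *Nhlh2* was at 280.0, 356 and 298 against 248, 297 and 247, a difference of 0.23 (-0.10 to 0.57). For both the groups overlap, and the intervals leave room for a change of either sign.

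In the same E14.5 libraries general neuron genes summed to 34704 to 37791 in mutants and 40477 to 43277 in controls, and fewer neurons and less RNA per neuron cannot be told apart in such tissue libraries. Of the 15 projection neuron transcription factors 14 had a difference below 0 and none passed (median -0.32, against 0.01 over all genes), with *Sox5*, a deep-layer factor, at -0.73 (adjusted p = 0.112). Of the 8 partner and target genes 6 were below 0 and none passed, with *Prdm8* at -0.37 and *Cntn2* at -0.36. The E protein *Tcf4* was at -0.29 (adjusted p = 0.559) and *Tcf3* at 0.20. *Id1* (-0.23), *Id2* (-0.54) and *Id3* (-0.35) were below 0 and *Id4* (0.25) above, and no gene of either group passed. All 7 Cajal-Retzius genes, which mark the earliest neurons of the marginal zone, were above 0 with none past the threshold (median 0.63), and summed to 1280 to 1667 in mutants and 825 to 1008 in controls. Apical progenitor genes summed to 12759 to 13872 against 12166 to 12631 and microglia genes to 735 to 898 against 384 to 448, where the fractalkine receptor *Cx3cr1* passed (1.12, adjusted p = 0.0269). The part of these cell types in the values of the members was not tested.

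Over the 12 cortices together, with age in the fit, *Neurod2* was lower in mutants (-0.86 ± 0.14 SE, 95% interval -1.16 to -0.55, limma adjusted p = 0.0229), and every mutant lay below every control of its age. Of all genes tested 0.044% were called lower in this fit and 0.52% had no overlap at both ages. An exact two-sided permutation test within age over 400 arrangements gave p = 0.005 for *Neurod2*, the smallest it allows, p = 0.01 for *Neurod6* (-1.19) and *Neurod1* (-0.39), p = 0.14 for *Bhlhe22* (-0.31), p = 0.345 for *Nhlh1* (-0.14) and p = 0.705 for *Nhlh2* (-0.09). By limma none but *Neurod2* passed, and with the title code as a block *Neurod6* passed as well (adjusted p = 0.00131). The adjusted p of *Neurod2* rose above 0.05 without E11.5 mutant A or C (0.0571 and 0.0703) or E11.5 control D or F (0.0640 and 0.0666). It did so too without E14.5 mutant 1 or 2 (0.0677 and 0.101) or E14.5 control 3 (0.0513). With sex as a term it was 0.284 (-0.67), with the *Gm42418* share as a term 0.0663 and with edgeR 0.0507. No difference between the ages in the genotype effect passed for any member, as for 0% of all genes. The only member with an unadjusted p under 0.05 was *Nhlh2* (0.65, unadjusted p = 0.0468, adjusted p = 0.620), and 1070 genes of all tested had one. edgeR called no member.

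**Figure D3:**
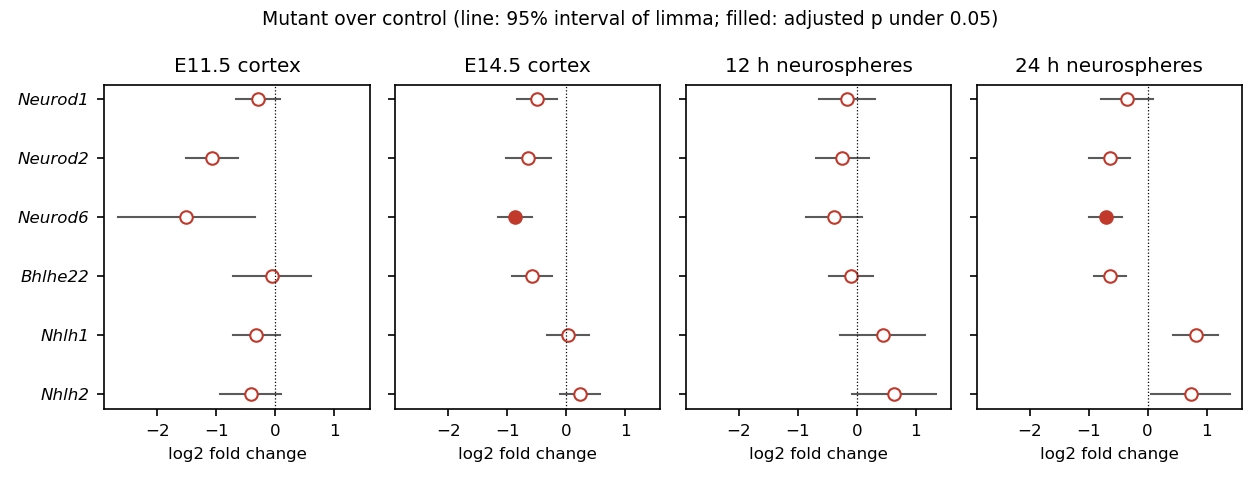
Log2 difference of mutants minus controls for each factor in E11.5 and E14.5 cortices and in 12-hour and 24-hour neurospheres, with 95% intervals from limma and filled points for an adjusted p under 0.05. *Neurod6* at E14.5 (-0.87) and at 24 hours (-0.71) is filled, and at 24 hours the *Nhlh* genes stand on the other side of 0.

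In 12-hour neurospheres every member overlapped between genotypes. *Neurod6* was at 2111, 1346 and 2335 in the mutant embryos, against 2251, 2039.6 and 3236 in the controls, a difference of -0.39 with an interval of -0.86 to 0.08. *Nhlh1* was at 218, 221 and 108 against 179, 106 and 111 (0.44, -0.29 to 1.16), and *Nhlh2* at 142, 136 and 175 against 92.8, 65.8 and 149.6 (0.62, -0.09 to 1.34). The other differences were -0.17 (*Neurod1*), -0.25 (*Neurod2*) and -0.10 (*Bhlhe22*). limma called 0% of the 13389 genes here, with 650 at an unadjusted p under 0.05 and no member among them. edgeR and DESeq2 called no member, and DESeq2 called 9 genes in all. The E14.5 difference of *Neurod2* (-0.64) lies inside its 12-hour interval (-0.69 to 0.20), and those of *Neurod6* (-0.87) and *Bhlhe22* (-0.57) lie just outside theirs (-0.86 to 0.08 and -0.47 to 0.27). These intervals leave out the error of the E14.5 values. Tested directly by limma, the genotype effect did not differ between cortex and 12 hours for *Neurod6* (0.48) or *Bhlhe22* (0.47), with an adjusted p of 0.793 for both. Of all genes 5.94% had every mutant below every control. Intermediate progenitor genes summed to 2230 to 2558 in mutants and 1894 to 1990 in controls, and Cajal-Retzius genes to 736 to 956 against 636 to 669. Projection neuron transcription factors summed to 21798 to 24595 against 25341 to 26750. *Ttr* was at 4507 to 15693 against 971 to 3608. The sums of general neuron and apical progenitor genes overlapped. The part of these values in those of the members was not tested.

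At 24 hours *Neurod6* fell in mutants, and *Nhlh1* stood on the other side of 0 with every mutant above every control but did not pass the test. *Neurod6* was at 1503, 1180.2 and 1375 in mutants, against 2497, 1921 and 2243 in controls, 39.1% lower (-0.71 ± 0.13 SE, 95% interval -1.001 to -0.43, limma adjusted p = 0.0425). It was the only member that passed, where 0.15% of 13300 genes were called lower. *Bhlhe22* was at 1087, 938 and 992 in mutants, against 1771, 1528 and 1408 in controls, 35.9% lower (-0.64 ± 0.13, adjusted p = 0.0562). *Neurod2* was at 2726, 2278 and 3001 against 5174, 3153 and 4371, 37.0% lower (-0.64 ± 0.16, adjusted p = 0.123). In these 3 genes no mutant reached the lowest control, as in 9.06% of all genes. *Neurod1* overlapped, at 627, 326 and 528 against 659.5, 512 and 661 (-0.35, adjusted p = 0.593).

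*Nhlh1* was at 278, 274 and 225 in the 24-hour mutants, from 388, 271 and 258 reads, and at 138, 142 and 160.0 in controls, from 101, 84 and 128 reads. Every mutant was above every control, which held for 7.15% of all genes, and the ratio of means was 1.77 (0.82 ± 0.18 SE, 95% interval 0.43 to 1.20, adjusted p = 0.0785). DESeq2 on whole reads put this difference past the threshold (adjusted p = 0.00977), as it did those of *Neurod2* (0.0213) and *Bhlhe22* (0.00271), and so did limma with no filter on low genes (0.0322, 0.0366 and 0.0163). *Neurod6* passed in both as well (0.000928 and 0.00610). edgeR called no member, with *Neurod6* at 0.0565. *Nhlh2* was at 156, 108 and 139 in mutants, against 134, 48.9 and 77.5 in controls (0.73, 95% interval 0.06 to 1.40, adjusted p = 0.422), and control 3 lay among the mutants.

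The adjusted p of *Neurod6* at 24 hours rose above 0.05 without mutant 2 (0.187), mutant 6 (0.101), control 3 (0.173) or control 5 (0.180). *Neurod2* passed without control 4 (0.0137). The share of *Gm42418*, a transcript that overlaps the 45S ribosomal RNA gene, was 20.5% to 23.0% in mutants and 6.26% to 13.9% in controls, and the mutant libraries were deeper (7903426 to 11645213 reads against 4732781 to 5709443). With that share as a term, *Neurod6* differed by -0.54 (adjusted p = 0.939). The call was also lost with a pseudocount of 0.1 (0.0536), quantile scaling (0.0794) and a fit over all 24 libraries (0.546). With a sex term, which compares mutant 6 alone with the controls, the difference was -0.68. Genes of liver, without *Ttr*, summed to 125 to 430.4 in mutants and 11.3 to 27.0 in controls, of which *Alb* (4.85, adjusted p = 0.0284) and *Serpina1e* (5.66, adjusted p = 0.0144) passed, and *Ttr*, a gene of liver and choroid plexus, was at 4826 to 16344 against 764 to 3509. The part of these values in those of the members was not tested.

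The partners and relatives of the family were read in the same 24-hour libraries. Of the 15 projection neuron transcription factors 2 fell, *Fezf2*, which specifies subcerebral neurons (-0.84 ± 0.15 SE, adjusted p = 0.0295), and *Mef2c*, an activity-dependent factor (-0.69 ± 0.13, adjusted p = 0.0444), and 11 were below 0 (median -0.22, against -0.01 over all genes). All 8 partner and target genes were below 0, with none past the threshold (median -0.25, *Prdm8* -0.46, *Cntn2* -0.38). All 9 proneural and progenitor bHLH genes tested were above 0, with none past the threshold (median 0.47, *Hes1* 0.998, *Hes5* 0.72). *Hes1* and *Hes5* are also in the apical progenitor list and *Neurog2* in the intermediate progenitor list. *Dcx* is in both the partner and target list and the general neuron list. Of the 4 Id genes *Id1* (1.66, adjusted p = 0.111) and *Id3* (1.05) were above 0 and *Id2* (-0.37) and *Id4* (-0.03) below, with none past the threshold. Of 7 Cajal-Retzius genes 5 were above 0 and 2 below, and *Ebf2* alone passed (1.58 ± 0.29, adjusted p = 0.0420). The sums of that list overlapped, at 595 to 702 in mutants and 481 to 707 in controls. General neuron genes summed to 32639 to 36918 in mutants and 38624 to 43970 in controls, and apical progenitor genes to 14901 to 16691 against 11722 to 13749. Intermediate progenitor genes summed to 1783.5 to 2142 against 1565 to 1772, and meningeal genes to 232 to 290 against 147 to 184. The part of these cell types in the values of the members was not tested.

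The genotype effect at 24 hours did not differ past the threshold from that at 12 hours for any member, nor did the effect at 12 hours differ from that in the cortex. Both tests called 0% of all genes, with 318 and 724 genes at an unadjusted p under 0.05, and edgeR called no member. The only member below an unadjusted p of 0.05 was *Bhlhe22* at 24 against 12 hours (-0.54 ± 0.21 SE, unadjusted p = 0.0200, adjusted p = 0.99997). From 12 to 24 hours its level went from 1294, 967 and 1153 to 1087, 938 and 992 in the mutant embryos, while the controls went from 1059, 1162 and 1434 to 1771, 1528 and 1408.

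The balance within the family was read as a ratio inside each library, which the size factor cannot move. These pairs were chosen after the values were seen, and the ratios are given with no test. For *Nhlh1* to *Neurod6* at 24 hours mutants 1, 2 and 6 gave log2 ratios of -2.43, -2.11 and -2.61, and controls 3, 4 and 5 gave -4.18, -3.76 and -3.81, a mean difference of 1.53. It was higher by 0.90 at E14.5, also without overlap, and by 1.25 at E11.5 and 0.83 at 12 hours, where the groups overlap. *Nhlh2* to *Neurod6* was higher in mutants without overlap at E14.5 (1.11), 12 hours (1.02) and 24 hours (1.45). *Nhlh1* to *Bhlhe22* differed by -0.26 at E11.5 and 0.54 at 12 hours with overlap, and *Nhlh1* to *Neurod2* overlapped at E14.5 and 12 hours. The difference for *Neurod6* to *Neurod2* was -0.23 at E14.5. Mutants 1, 2 and 6 gave -0.51, -0.56 and -0.96. Controls 3, 4 and 5 gave -0.49, -0.43 and -0.41, a narrow gap without overlap. That difference was -0.49 at E11.5, -0.14 at 12 hours and -0.07 at 24 hours with overlap. *Neurod1* to *Neurod2* at E11.5 was higher in mutants by 0.79 without overlap. How many other gene pairs have no overlap was not counted. A 3′ read count depends little on gene length, but the size of a ratio between genes is not read here, only its difference between libraries.

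**Figure D4:**
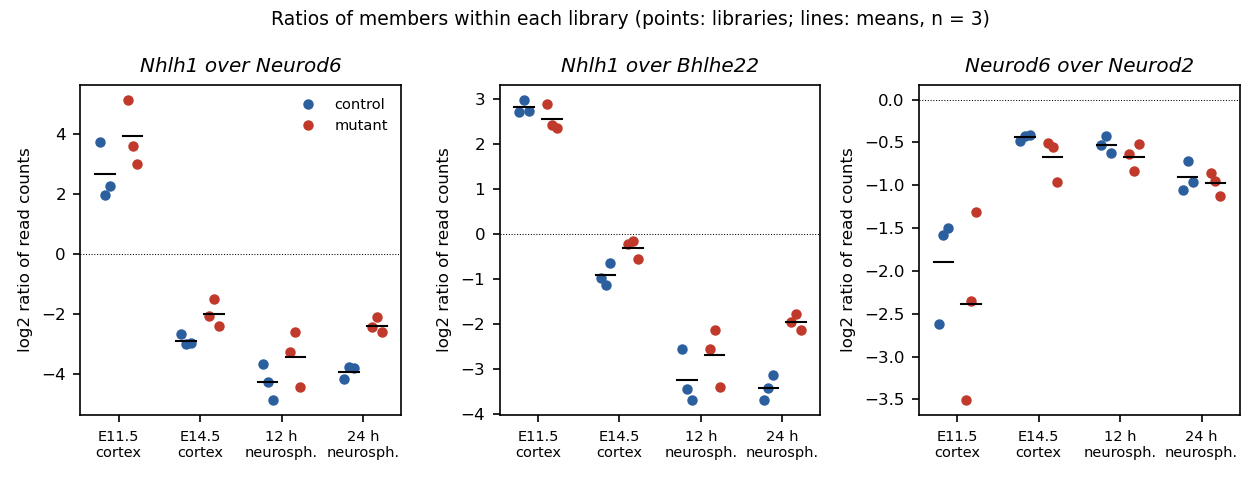
Log2 ratio of the normalized read counts of 2 factors within each library, for *Nhlh1* over *Neurod6*, *Nhlh1* over *Bhlhe22* and *Neurod6* over *Neurod2*, with mutants in red and controls in blue. At 24 hours the mutants lie above the controls by 1.53 for the first pair and by 1.46 for the second, and overlap for the last.

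Across the 24 libraries genes with a level pattern most like *Neurod2* included *Nfib* (Pearson r = 0.993 over log2 levels) and *Neurod6* (0.988), out of 13677 genes. *Bhlhe22* was nearest to *Myt1l* (0.989), *Neurod1* to *Nsg2* (0.947), *Nhlh1* to *Mlc1* (0.918) and *Nhlh2* to *Lhx9* (0.938). Among the members r was 0.914 for *Neurod1* with *Neurod2*, 0.964 for *Neurod2* with *Bhlhe22*, -0.28 for *Neurod2* with *Nhlh1* and -0.60 for *Neurod2* with *Nhlh2*. These libraries share embryos, size factors and 4 conditions, and the r values describe mostly the conditions. For deviations from the group means r was 0.663 for *Neurod1* with *Neurod2*, 0.514 for *Neurod2* with *Neurod6*, 0.613 for *Neurod2* with *Nhlh2* and -0.23 for *Neurod2* with *Nhlh1*.

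The order of the 4 conditions placed E11.5 lowest for *Neurod1*, *Neurod2*, *Neurod6* and *Bhlhe22* in both genotypes, with no overlap with the next condition. For *Bhlhe22* the 12-hour and 24-hour cultures stood above both ages of cortex without overlap. For *Nhlh1* the controls held E14.5 and E11.5 on top, overlapping each other, with the cultures below them, and in the mutants E14.5 stood on top with E11.5 and 24 hours overlapping below it. For *Nhlh2* the E11.5 cortex was highest, without overlap in controls and with overlap in mutants, and the cultures were lowest.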

How the data were processed

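RNA was measured in 24 mouse libraries in 8 groups of 3 embryos. Per the labels and the study's methods, 3′ end libraries (QuantSeq 3′ FWD) were aligned to GRCm38 with TopHat2 2.0.10 (with SAMtools 0.1.19 and Bowtie 1.0.0) and counted by strand with HTSeq 0.6.1 on GENCODE vM20. The authors deposited 1 table of signal values, read counts divided by a size factor per library, for 54658 genes. The labels name 5 libraries of low RNA input. How these 5 fall on the groups is not given here. No fit was run without them as a set, and their part in the results was not tested. Whole reads were recovered from the steps of the values, and 100% of 484666 values came out whole within 1e-06.

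Groups were compared with limma 3.58.1 (R 4.3.3, trend) on log2(value + 1) over genes whose mean reached 10, with p adjusted over all genes tested (Benjamini-Hochberg, threshold 0.05). Cortices were fitted with age and genotype, and an exact permutation test within age was run for each member. Results were recomputed with edgeR 4.0.16 and DESeq2 1.42.0 on whole reads, other pseudocounts and filters, quantile scaling, terms for sex and *Gm42418* share, blocks by title code and by embryo, a fit over all 24 libraries, and each library left out. The fits were tested on simulated data. The members and gene lists were chosen with earlier results of these data known. All 6 members are named, with list genes named when they passed or had the largest differences, and the next most alike genes by Pearson r. Cortex and cultures with the same number come from the same embryo by the labels, and deviations from group means correlated at -0.11 to 0.235 over 18 such pairs (12 above 0.1). Group sizes of 3 limit all tests. In the genotype comparisons within a condition and in the fits over the cortices, p-values measure the spread between embryos. The main fits between cortex, 12 hours and 24 hours held each embryo more than once with no embryo term. Their p-values ignore that pairing. Some genes of these lists are not reported here by name.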

Additional observations from a re-analysis of the deposited data

How the results depend on the processing

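Of 1120 member results under an alternative, 1041 kept their direction and their side of the threshold. Members past the threshold at E11.5 numbered 0, and 1 with no filter on low genes or with DESeq2 (0 to 1 with a library left out). At E14.5 they numbered 1, and 0 with edgeR, a mean of at least 50 or all 24 libraries in the fit (0 to 2 with a library left out). At 24 hours they numbered 1, and 0 with edgeR, a pseudocount of 0.1, quantile scaling, a *Gm42418* term or all 24 libraries, 2 with a pseudocount of 5, and 4 with no filter or DESeq2 (0 to 2 with a library left out). Over the 12 cortices they numbered 1, and 0 with edgeR, a sex term or a *Gm42418* term, and 2 with a block by title code, where *Neurod6* also passed (0 to 1 with a library left out). Apart from the smaller samples, the cause was not tested. None of the 34 reversed values passed. *Bhlhe22* at E11.5 was 0.16 with a sex term, *Nhlh1* at E14.5 was -0.24 with sex and -0.049 with *Gm42418*, and *Nhlh1* at 12 hours was -0.24 with sex. From cortex to 12 hours *Neurod6* was 0.0101 with edgeR and 0.0031 with DESeq2, and *Neurod2* -0.066 with quantile scaling. With a library left out, ranges that crossed 0 were -0.34 to 0.15 (*Bhlhe22*, E11.5), -0.11 to 0.16 (*Nhlh1*, E14.5), -0.19 to 0.026 (*Bhlhe22*, 12 hours), -0.17 to 0.068 (*Nhlh2*, cortices), -0.10 to 0.11 and -0.13 to 0.052 (*Neurod2* and *Neurod6*, cortex to 12 hours), -0.073 to 0.12 (*Neurod2*, 12 to 24 hours), and -0.38 to 0.091 and -0.24 to 0.47 (*Neurod1* and *Nhlh2*, genotype effect at 24 against 12 hours). The replicate block by embryo changed no member's call in the culture comparisons (*Nhlh1* from cortex to 12 hours -1.45 with it), and raised the genes called from 12 to 24 hours from 39 to 104.

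Over all genes DESeq2 called 34 against limma's 2 at E11.5, 64 against 10 at E14.5, 9 against 0 at 12 hours, 182 against 36 at 24 hours, 94 against 19 over the cortices and 160 against 39 from 12 to 24 hours. With no filter limma called 17, 31, 9 and 140 in the first 4. A sex term gave 7 over the cortices, and a *Gm42418* term gave 0 at 24 hours. DESeq2 was not run for the differences between genotype effects.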

Other observations

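*Tcf4*, an E protein and so a possible partner of these factors, had every mutant below every control in each of the 4 conditions, and passed the test in none. In the E11.5 and E14.5 cortices its log2 difference was -0.16 and -0.29 (limma adjusted p = 0.713 and 0.559), and in culture it was -0.28 after 12 hours and -0.33 after 24 (adjusted p = 0.913 and 0.294). Such genes with no overlap made up 5.94% to 9.06% of all genes in a single condition. The share of all genes with no overlap in all 4 conditions was not counted, so how unusual *Tcf4* is cannot be told. *Tcf4* was singled out after its values were seen, and the 12-hour and 24-hour cultures share embryos with the E14.5 cortices.

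From each embryo's own cortex to its 24-hour culture, *Nhlh1* changed by -0.56, -0.86 and -0.60 on the log2 scale in mutants 1, 2 and 6 and by -1.69, -1.39 and -1.30 in controls 3, 4 and 5. At 12 hours the same changes were -0.91, -1.17 and -1.65 against -1.31, -1.80 and -1.83 and overlapped. The difference between genotypes in the change to 24 hours was not tested.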
